A study of Mus musculus with 32 samples.

Results

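The 10 genes described here encode proteins of the BCL2 family that set cell survival against cell death. They were taken by name: the survival genes Bcl2, Bcl2l1 and Mcl1, the pore-forming effectors Bax and Bak1, and the BH3-only genes Bcl2l11, Bid, Bbc3, Pmaip1 and Bad. All 10 were found among the 27179 genes counted, and all 10 passed the filter on low counts in every fit. Their levels were measured by RNA sequencing in bone marrow cells of adult C57BL/6 mice with Kat7 deleted and of their controls; Kat7, also called Hbo1, encodes a protein that acetylates histone H3.

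The 32 libraries came from 16 mice, each giving 1 library of LSK cells and 1 of progenitors. LSK cells lack lineage markers, carry Sca-1 and Kit, and are the marrow fraction that holds hematopoietic stem cells. The gate of the progenitors is not described in the labels. Knockout mice were Hbo1fl/fl with both alleles deleted, and controls were Hbo1fl/+, with 1 allele deleted according to the titles, although the treatment protocol calls them wild type. Every mouse, control or knockout, carried a Cre and received its inducer: tamoxifen with RosaCreERT2 (CreER), a Cre made from a broadly active locus, or polyIC with Mx1-Cre (Mx1Cre), a Cre under an interferon-responsive promoter. Cre line, inducer and set of mice therefore cannot be told apart. The sex make-up differed too: by label each CreER group held 3 females and 1 male, and each Mx1Cre group 2 females, the rest being male. Each of the 8 groups, LSK or progenitor, CreER or Mx1Cre, knockout or control, held 4 libraries from 4 mice.

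Proteins of this family act at the outer membrane of mitochondria. BCL2, BCL-XL (from Bcl2l1) and MCL1 hold the pore formers BAX and BAK in check. BH3-only proteins such as BIM (from Bcl2l11), BID, PUMA (from Bbc3), NOXA (from Pmaip1) and BAD bind the survival proteins or activate the pore formers after stress or loss of growth factor signals, and the opened membrane releases cytochrome c, which leads to caspase activation. In mouse blood formation MCL1 is required for stem cell survival, and forced BCL2 raises the number of stem cells.

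In short, loss of Kat7 went with less Bcl2 transcript in both populations. In LSK cells it also went with more Bid, Bak1, Bax and Bcl2l1, averaged over both Cre lines. In progenitors it went with more Bcl2l11, a call close to the threshold that 14 of 25 alternatives did not keep. With CreER alone, only Bid was called in LSK cells, and no member in progenitors. For Bax, Bcl2l1 and Bcl2l11 the knockout effect was not shown to differ between the populations. All of these values are transcript levels of sorted populations, and proteins were not measured. In bulk samples, fewer cells of a type and less RNA per cell cannot be told apart.

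Promoters of 3 genes are shown because these genes carry the clearest differences: Bcl2 fell, and Bid and Bak1 rose in LSK knockouts. The sequences are from RefSeq (GRCm38.p6) and run 5′ to 3′ on the gene's strand from 250 bases before the start to 50 after it. Capitals mark GC boxes, the motif GGGCGG on either strand. The Bcl2 window is chr1:106714241-106714540 on the minus strand, that of Bid chr6:120916775-120917074 on the minus strand, and that of Bak1 chr17:27028578-27028877 on the minus strand.
Bcl2: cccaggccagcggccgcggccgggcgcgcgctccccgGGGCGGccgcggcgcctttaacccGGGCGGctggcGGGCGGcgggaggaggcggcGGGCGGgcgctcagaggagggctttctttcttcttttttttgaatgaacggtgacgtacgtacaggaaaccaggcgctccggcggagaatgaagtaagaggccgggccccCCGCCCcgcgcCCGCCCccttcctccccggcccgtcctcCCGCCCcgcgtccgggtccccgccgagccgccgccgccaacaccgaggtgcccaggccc
Bid: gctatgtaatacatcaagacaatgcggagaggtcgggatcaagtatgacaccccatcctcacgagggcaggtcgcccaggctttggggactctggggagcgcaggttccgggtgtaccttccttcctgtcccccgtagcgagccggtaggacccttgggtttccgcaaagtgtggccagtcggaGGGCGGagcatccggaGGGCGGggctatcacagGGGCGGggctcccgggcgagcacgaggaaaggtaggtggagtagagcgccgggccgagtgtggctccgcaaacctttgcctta
Bak1: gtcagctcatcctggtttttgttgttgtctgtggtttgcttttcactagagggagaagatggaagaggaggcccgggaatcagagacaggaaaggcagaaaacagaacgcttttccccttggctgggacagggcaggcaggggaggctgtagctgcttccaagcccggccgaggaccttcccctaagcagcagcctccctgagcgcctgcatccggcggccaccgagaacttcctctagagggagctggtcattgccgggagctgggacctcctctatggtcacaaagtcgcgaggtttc
The Bcl2 window holds 7 GC boxes, a number reached or passed in 0.627% of 32851 promoters of the same length, and the Bid window 3, reached or passed in 10.7%. The Bak1 window holds none of the 7 motifs searched on both strands.

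The promoter table covered Bcl2, Bcl2l1, Mcl1, Bcl2l11, Bax, Bak1, Bid, Bbc3 and Bad with 15 promoters in all. A GC box was found for 7 of these 9 genes, against 35.7% of all promoters, which are not matched for base composition. CCAAT was found for 3 genes (37.4% of all promoters), the E box CACGTG for Bax and Bbc3 (7.15%) and the GATA motif AGATAA for Bcl2l1 (11.2%). TATAAA (13.6%), the STAT motif TTCNNNGAA (8.3%) and an interferon response (IRF) motif (3.44%) were in none of the windows. The 15 promoters were rich in CpG, with a median of 27 CpG and 65.7% G and C, against 7 CpG and 52.7% over all promoters. A match describes letters only, and a gene with several promoters has more windows in which one can occur.

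Total counts per library ran from 7275277 to 18409271. Kat7 itself averaged 0.455 to 1.45 CPM (library-scaled counts, with TMM over the 32 libraries) in the 4 knockout groups and 61.5 to 71.5 CPM in the 4 control groups. LSK markers checked the populations: all 9, among them Ly6a and Kit, were called higher in LSK than in progenitor controls, and all 9 markers of committed myeloid progenitors were called lower. Sex-linked transcripts of LSK CreER knockouts 2 and 3 went against their labels, with 0.736 CPM of Xist in the library labelled female and 3401 CPM in the one labelled male. Both had little Kat7 (0.849 and 0.832 CPM), and the progenitor libraries of the same mice matched their labels. Whether the 2 were exchanged was not tested. An exchange within 1 group would not alter a comparison fitted without sex or mouse. Alternatives with sex or mouse used the labels as given, apart from 1 mouse block with these mice exchanged. Values without both are given for Bid with CreER, for the Bid and Bak1 differences between populations and for counts of calls. Other values are not given that way. Leaving both out, which leaves fewer libraries in that group, was also among the 25 alternatives for LSK cells over both Cre lines. Under all of these Bcl2, Bcl2l1, Bax, Bak1 and Bid kept their calls. Short genes were high relative to long ones in LSK Mx1Cre knockouts 1, 3 and 4, where each doubling of exon length went with a change of -0.08, -0.12 and -0.14 in log2 CPM, against 0.02 in knockout 2. The same held for progenitor Mx1Cre control 1 (-0.35) and knockouts 3 (-0.14) and 4 (-0.29), so values with this trend removed are given where they differ.

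**Figure D1:**
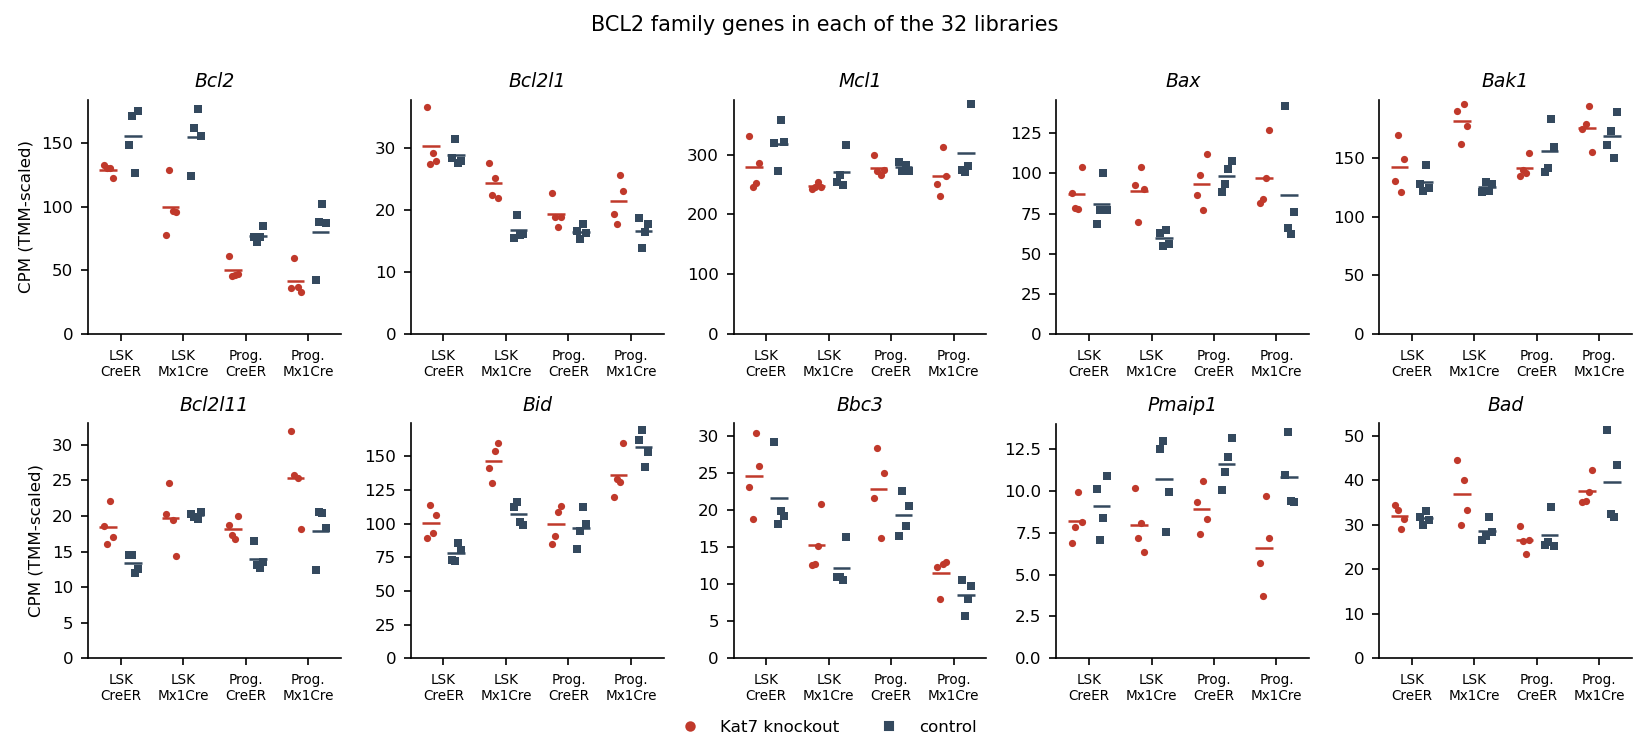
Level of each BCL2 family gene in CPM (y axis from 0, scaled with TMM) in the 4 libraries of each group, knockout left of control for each population and Cre line, with bars at the group means. Bcl2 sits lower in knockouts of every pair on average, and Bid and Bak1 stand clearly higher in LSK Mx1Cre knockouts, between 130.5 and 160.1 CPM and between 162 and 196 CPM.

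Per kilobase of exon, the median of the 8 group means was 101 CPM for Bax, 79.8 for Mcl1, 74.3 for Bak1 and 54.9 for Bid. Bad followed at 21.8 CPM per kilobase and Bcl2 at 11.6. Bbc3 stood at 8.77, Bcl2l1 at 8.61, Bcl2l11 at 3.64 and Pmaip1 at 3.39 CPM per kilobase. The pore formers and Mcl1 were thus the more abundant transcripts, and the BH3-only genes Bcl2l11 and Pmaip1 the least. Group means spread least for Mcl1, where the highest was 1.29 times the lowest, and most for Bcl2, at 3.74 times.

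Bcl2 (Entrez 12043, chromosome 1, 106538176 to 106714290 on mm10) encodes the founding survival protein of the family. In LSK cells it had 132, 129.9, 130.4 and 122 CPM in CreER knockouts, against 148, 171, 126 and 175 CPM in CreER controls. With Mx1Cre it had 77.4, 128, 96.4 and 96.0 CPM in LSK knockouts, against 124, 162, 177 and 155 CPM in LSK controls. In each pair the lowest control lay within the range of the knockouts, and LSK Mx1Cre knockout 2 was the highest of its group. Averaged over both Cre lines, Bcl2 fell by 0.45 ± 0.09 in LSK knockouts (log2, SE; edgeR quasi-likelihood test, Benjamini-Hochberg adjusted p = 0.00205). Taken alone, the Mx1Cre comparison gave a fall of 0.64 ± 0.13 (edgeR adjusted p = 0.00212), and CreER a log2 difference of -0.26 with a 95% interval of -0.55 to 0.02 (adjusted p = 0.315). With the exon length trend removed the Mx1Cre difference was smaller, -0.37 (edgeR adjusted p = 0.0141), and the mean over both Cre lines -0.36 (adjusted p = 0.0015).

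Bcl2 was lower in progenitors than in LSK cells, and in knockout progenitors it was lower again. CreER knockout progenitors had 61.6, 45.7, 46.5 and 47.0 CPM, against 75.9, 72.3, 76.0 and 84.9 CPM in their controls. Mx1Cre knockout progenitors had 35.9, 59.4, 37.3 and 33.1 CPM, against 42.1, 88.0, 102 and 87.3 CPM in their controls. The CreER groups did not overlap. Among the Mx1Cre libraries, control 1 lay below knockout 2, and control 1 is a library with a steep length trend. The mean fall over both Cre lines was 0.79 ± 0.16 (log2, SE; edgeR, Benjamini-Hochberg adjusted p = 0.00549). This fall stayed past the threshold under all 25 alternatives run, with an adjusted p of at most 0.0158. The 2 populations were not shown to differ in their knockout effect on Bcl2: the log2 difference, LSK minus progenitor, was 0.33 with a 95% interval of -0.07 to 0.73 (edgeR adjusted p = 0.44).

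By Cre line, the progenitor fall of Bcl2 was 0.94 ± 0.23 with Mx1Cre (log2, SE; edgeR, Benjamini-Hochberg adjusted p = 0.0204). Without Mx1Cre controls 2, 3 or 4 or knockouts 1, 3 or 4, each left out alone, its adjusted p was 0.0539 to 0.076, and with only the compared libraries 0.167. With CreER the log2 difference was -0.63 with an interval of -1.12 to -0.15 and an adjusted p of 0.41, or 0.0318 when only the compared libraries were fitted. In a GENCODE annotation of mm10, D630008O14Rik, an antisense gene, shares 558 bases with Bcl2 exons, and their reads may not be separated. The exon overlaps given for other members are from the same annotation. Its exons differ from the counted ones, with 9157 against 7749 bases for Bcl2, so shared bases may lie outside the counted exons.

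Bcl2l1 (Entrez 12048, chromosome 2, 152758732 to 152833803) encodes BCL-XL, the survival protein known for its role in red cell precursors and platelets. Under Mx1Cre, LSK knockouts had 27.6, 22.5, 25.2 and 21.9 CPM, against 15.5, 19.2, 16.01 and 16.1 CPM in LSK controls, with no overlap. CreER knockouts had 36.6, 27.5, 29.2 and 27.9 CPM in LSK cells, against 28.3, 31.5, 27.6 and 27.8 CPM in controls, and these groups overlapped. Bcl2l1 rose by 0.31 ± 0.08 over both Cre lines in LSK cells (log2, SE; edgeR, Benjamini-Hochberg adjusted p = 0.0114) and by 0.54 ± 0.12 with Mx1Cre (adjusted p = 0.00309). The CreER difference was 0.08 (log2, 95% interval -0.17 to 0.32). In progenitors the difference over both Cre lines was 0.29, with an interval of 0.07 to 0.51 and an edgeR adjusted p of 0.119.

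Mcl1 (Entrez 17210, chromosome 3, 95656944 to 95663179), the survival gene on which blood stem cells depend, was the most even member. Its group means lay between 247 and 318 CPM in LSK cells and between 264 and 303 CPM in progenitors. No knockout comparison called it with edgeR: over both Cre lines the log2 difference was -0.16 in LSK cells (95% interval -0.32 to -0.0039, adjusted p = 0.118) and -0.11 in progenitors (interval -0.28 to 0.07, adjusted p = 0.551). Among the 3 survival genes of LSK knockouts, Bcl2 thus fell, Bcl2l1 rose and Mcl1 was not called.

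Of the pore formers, Bak1 (Entrez 12018, chromosome 17, 27019812 to 27028627) had 189.7, 162, 196 and 177 CPM in LSK Mx1Cre knockouts, against 121, 129, 122 and 127 CPM in LSK Mx1Cre controls. All 4 knockouts lay above all 4 controls. CreER knockouts had 130.2, 169, 121 and 149 CPM in LSK cells, against 127, 122, 144 and 124 CPM in controls, and overlapped. Bak1 rose by 0.34 ± 0.07 over both Cre lines in LSK cells (log2, SE; edgeR, Benjamini-Hochberg adjusted p = 0.00182) and by 0.53 ± 0.10 with Mx1Cre (adjusted p = 0.000794). The CreER difference was 0.14 (95% interval -0.07 to 0.35, adjusted p = 0.491). Exons of Ggnbp1 on the other strand share 614 bases with Bak1.

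Bax (Entrez 12028, chromosome 7, 45461695 to 45466903) had 92.6, 69.7, 104 and 90.0 CPM in LSK Mx1Cre knockouts, against 63.1, 54.7, 64.5 and 56.2 CPM in LSK Mx1Cre controls. The groups did not overlap, and knockout 2, the knockout without the length trend, was the lowest of its group. Bax has the shortest exons of the family, 869 bases. It rose by 0.34 ± 0.09 over both Cre lines (log2, SE; edgeR, Benjamini-Hochberg adjusted p = 0.0122) and by 0.57 ± 0.13 with Mx1Cre (adjusted p = 0.00419). With the length trend removed the Mx1Cre rise was 0.39 (edgeR adjusted p = 0.0053). CreER knockouts averaged 87.0 ± 12.3 CPM in LSK cells and their controls 80.7 ± 13.5 CPM (SD, n = 4 each). Gm45808 on the same strand shares 192 exon bases with Bax.

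With all libraries, neither pore former was called in knockout progenitors. Bak1 differed by -0.05 (log2, 95% interval -0.21 to 0.12; edgeR, Benjamini-Hochberg adjusted p = 0.84) and Bax by 0.04 (interval -0.30 to 0.38, adjusted p = 0.938). Progenitor Mx1Cre control 1, with its steep length trend, had 141 CPM of Bax, and the other controls of that group 62.3 to 76.1 CPM. Without control 1 the Bax difference was 0.53 with Mx1Cre (edgeR adjusted p = 0.045, a call), against 0.16 with it (adjusted p = 0.826), and 0.23 over both Cre lines (adjusted p = 0.185). Without control 1 and knockout 4 together, an alternative chosen after seeing the data, the Mx1Cre difference was 0.37 (adjusted p = 0.0975).

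Bid (Entrez 12122, chromosome 6, 120893119 to 120917062) encodes the BH3-only protein that is cut by caspase-8 and links death receptors to mitochondria. In LSK cells it had 89.1, 114, 93.3 and 107 CPM in CreER knockouts, against 73.4, 72.5, 85.8 and 80.3 CPM in CreER controls. With Mx1Cre the LSK knockouts had 141, 130.5, 154 and 160.1 CPM, against 112, 116, 101 and 98.7 CPM in controls. Knockouts lay above controls without overlap in both Cre lines. Bid rose by 0.41 ± 0.07 over both lines (log2, SE; edgeR, Benjamini-Hochberg adjusted p = 0.000352), by 0.37 ± 0.10 with CreER (adjusted p = 0.0476) and by 0.45 ± 0.10 with Mx1Cre (adjusted p = 0.00271). The CreER call is close to the threshold: without controls 1, 2 or 4 or knockouts 2, 3 or 4, each left out alone, the adjusted p was 0.0515 to 0.174, and without knockouts 2 and 3 together the difference was 0.33 with an adjusted p of 0.348. Exons of Bcl2l13 on the other strand share 628 bases with Bid.

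In progenitors Bid was not called. The difference over both Cre lines was -0.09 on the log2 scale (95% interval -0.29 to 0.10; edgeR, Benjamini-Hochberg adjusted p = 0.672), and in each Cre line the knockout and control libraries overlapped.

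Bcl2l11 (Entrez 12125, chromosome 2, 128126038 to 128162547) encodes BIM, which activates BAX and BAK and is bound by all 3 survival proteins. It had 18.8, 17.4, 16.8 and 20.0 CPM in progenitor CreER knockouts, against 16.5, 13.1, 12.7 and 13.5 CPM in controls, without overlap. Progenitor Mx1Cre knockouts had 32.0, 25.8, 25.4 and 18.2 CPM, against 12.5, 20.6, 20.4 and 18.3 CPM in controls, and only knockout 4 lay within the range of the controls. Over both Cre lines Bcl2l11 rose by 0.44 ± 0.13 in progenitors (log2, SE; edgeR, Benjamini-Hochberg adjusted p = 0.047), and by the same size with the length trend removed (0.44, adjusted p = 0.00262). Leaving out single libraries gave 0.0147 to 0.115 as the adjusted p. The call was lost without any 1 of 11 libraries, that is all but CreER control 1, Mx1Cre controls 1, 2 and 3 and Mx1Cre knockout 4, with the replicate block (adjusted p = 0.0893), with no low-count filter (0.0643) and with sex as a covariate (0.0548), so under 14 of 25 alternatives.

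In LSK cells Bcl2l11 was not called in either Cre line. Over both lines the log2 difference was 0.22 (95% interval 0.0052 to 0.43, edgeR adjusted p = 0.118), also without a call. CreER knockouts had 18.5, 16.1, 22.05 and 17.1 CPM, against 14.6, 14.5, 12.01 and 12.5 CPM in controls, without overlap. Mx1Cre knockouts had 20.3, 24.6, 19.4 and 14.4 CPM, against 20.3, 19.9, 19.6 and 20.5 CPM in controls, which lay inside the range of the knockouts. The CreER difference was 0.46 on the log2 scale (95% interval 0.16 to 0.77; edgeR, Benjamini-Hochberg adjusted p = 0.0869, and 0.0419 with the length trend removed). The Mx1Cre difference was -0.03 (interval -0.33 to 0.27), and the difference between the Cre lines was not called (-0.49, interval -0.92 to -0.07, edgeR adjusted p = 0.149).

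The ratio of Bcl2 to Bcl2l11 transcript per kilobase sets the survival gene against the BH3-only gene that its protein binds. It averaged 4.59 in LSK CreER knockouts (3.84 to 5.23), against 7.54 in controls (6.63 to 9.07), and 3.36 in LSK Mx1Cre knockouts (2.48 to 4.33), against 5.01 in controls (3.98 to 5.86). In progenitors it averaged 1.79 in CreER knockouts (1.53 to 2.13), against 3.63 in controls (2.99 to 4.07), and 1.09 in Mx1Cre knockouts (0.729 to 1.496), against 2.83 in controls (2.20 to 3.25). Knockouts lay below controls without overlap in all pairs but LSK Mx1Cre, where knockout 4 lay above control 1. The ratio was formed after both genes had been seen to move, so it is a description and carries no test.

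**Figure D2:**
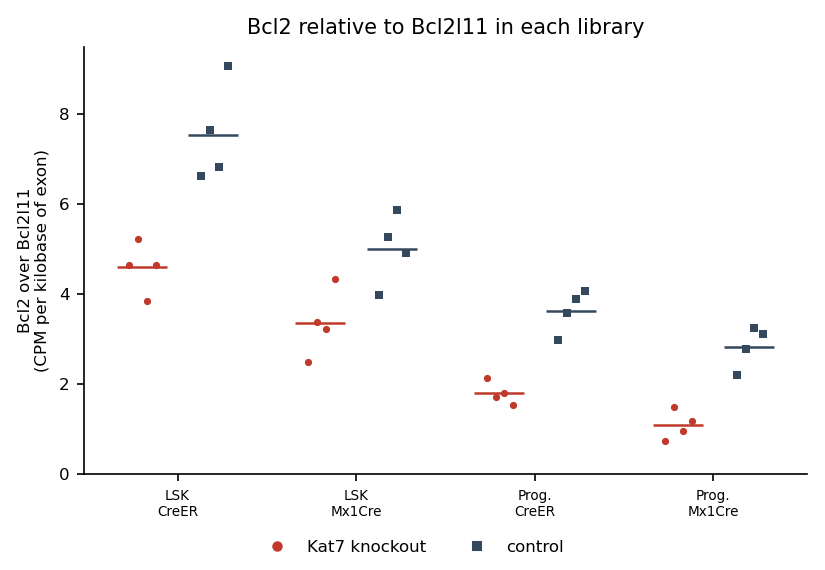
Bcl2 over Bcl2l11, each in CPM per kilobase of exon (y axis, a ratio without unit, from 0), in each of the 4 libraries of the 8 groups, knockout left of control, with bars at the means. Mean ratios are lower in knockouts in all 4 pairs, from 4.59 against 7.54 in LSK CreER cells to 1.09 against 2.83 in progenitor Mx1Cre cells.

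Bbc3 (Entrez 170770, chromosome 7, 16308398 to 16318334) encodes PUMA, a p53 target. It ran from 12.6 to 30.4 CPM in LSK knockouts and from 10.6 to 29.2 CPM in LSK controls, and no knockout comparison called it. Over both Cre lines the log2 difference was 0.25 in LSK cells (95% interval -0.05 to 0.56; edgeR, Benjamini-Hochberg adjusted p = 0.203) and 0.32 in progenitors (interval -0.0076 to 0.65, adjusted p = 0.269).

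Pmaip1 (Entrez 58801, chromosome 18, 66458604 to 66465558) encodes NOXA, which binds MCL1 above all. Progenitor Mx1Cre knockouts had 5.67, 3.73, 9.70 and 7.16 CPM, against 10.97, 13.5, 9.39 and 9.32 CPM in controls, and CreER knockouts had 9.32, 7.43, 10.6 and 8.31 CPM, against 10.1, 11.1, 12.002 and 13.1 CPM in controls. In each pair only knockout 3 lay above the lowest control. The difference in progenitors over both Cre lines was -0.56 (log2, 95% interval -0.92 to -0.20) with an edgeR adjusted p of 0.0562, just outside the threshold. It passed with DESeq2 (0.016), limma-voom (0.0267), sex as a covariate (0.041) and the length trend removed (0.0434). In LSK cells the difference was -0.30 (interval -0.60 to 0.0012, adjusted p = 0.128).

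Bad (Entrez 12015, chromosome 19, 6941861 to 6951905), whose protein is held inactive by AKT signals, had 44.5, 29.9, 40.0 and 33.4 CPM in LSK Mx1Cre knockouts, against 26.5, 27.4, 31.7 and 28.4 CPM in controls. Only knockout 2 lay among the controls. Bad rose by 0.37 ± 0.12 there (log2, SE; edgeR, Benjamini-Hochberg adjusted p = 0.0224). The call was lost with the length trend removed (0.23, adjusted p = 0.0906) and without controls 1, 2 or 4 or knockouts 1 or 3, each left out alone, with adjusted p values of up to 0.0945. Over both Cre lines the difference in LSK cells was 0.20 (interval 0.03 to 0.37, adjusted p = 0.0786), and in progenitors -0.08 (interval -0.33 to 0.16). Gpr137 on the other strand shares 524 exon bases with Bad.

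**Figure D3:**
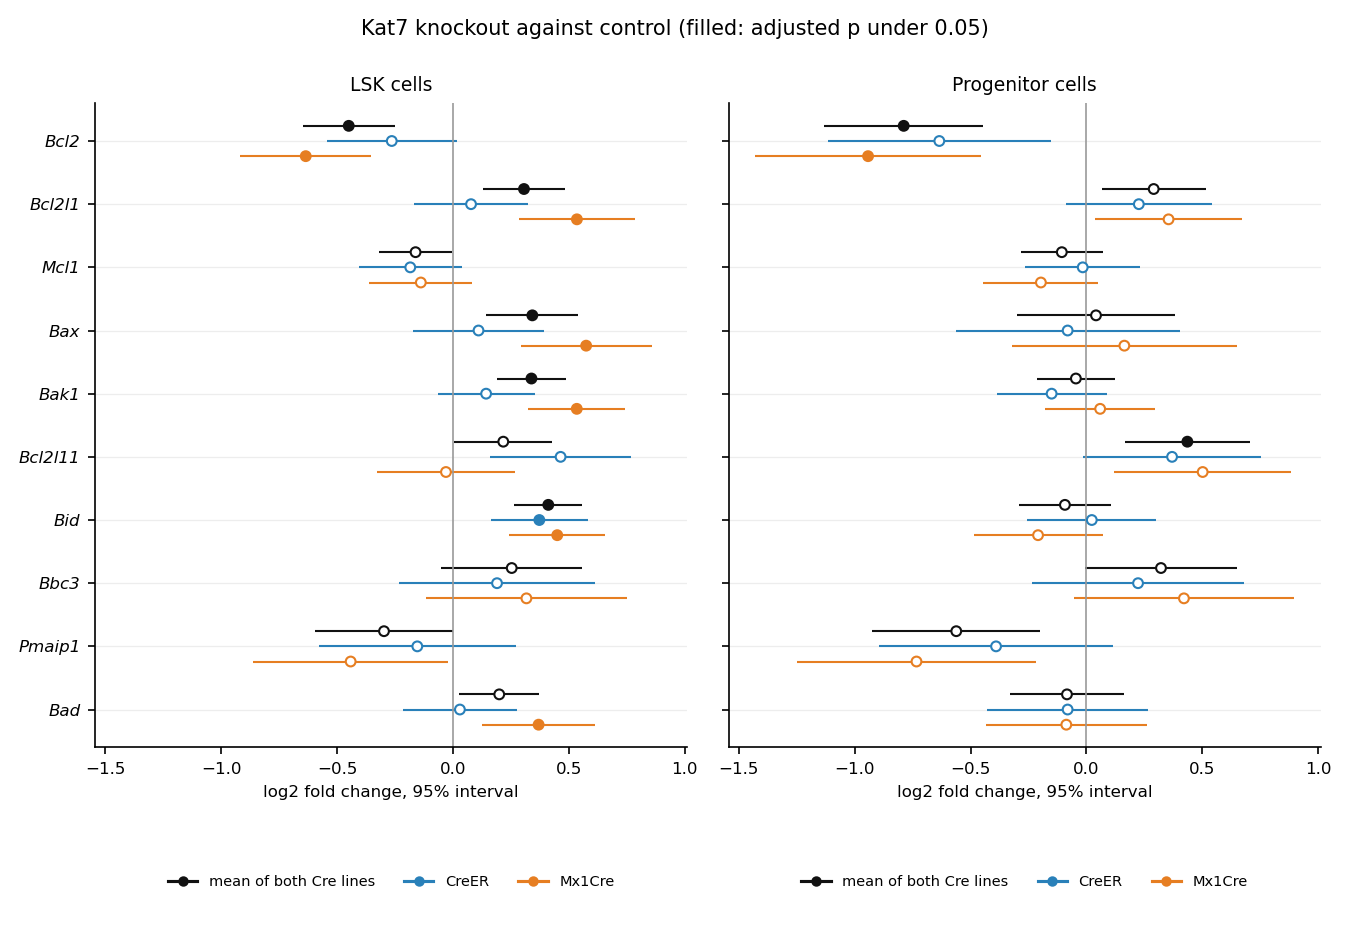
Log2 fold change of each gene, knockout over control (x axis), with 95% intervals derived from the edgeR test, in LSK cells (left) and progenitors (right). Each gene has a line for the mean of both Cre lines (top), CreER (middle) and Mx1Cre (bottom). Filled points have an adjusted p under 0.05: in LSK cells 5 genes in the mean of both Cre lines, with Bcl2 at -0.45 and Bid at 0.41, and in progenitors Bcl2 at -0.79 and Bcl2l11 at 0.44.

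As a count, 5 of the 10 genes were called in LSK cells over both Cre lines, 4 higher and 1 lower, beside 27.8% of the 14102 genes tested (13.5% higher and 14.3% lower). Their median log2 change was 0.24, beside 0.01 over all genes tested. With CreER 1 of 10 was called (3.16% of all genes tested), and with Mx1Cre 6 of 10 (31.0%). In progenitors 2 of 10 were called over both Cre lines, beside 7.79% of 13692 genes, with a median of -0.06 against -0.01. With Mx1Cre 1 of 10 was called there (6.08%). With CreER 0 of 10 were called by edgeR, beside 0.168%, where 1, Bcl2, had an unadjusted p under 0.05 and DESeq2 and limma-voom also called 0.

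The Cre lines were compared as a difference of knockout effects. In LSK cells 0 of 10 genes were called by edgeR, beside 4.37% of all genes tested, 4 had an unadjusted p under 0.05 (Bcl2l1, Bcl2l11, Bax and Bak1), and DESeq2 and limma-voom called 0. This count hung on a few libraries: without LSK Mx1Cre knockout 2, the knockout library of that group without the length trend, 5 genes were called (Bcl2, Bcl2l11, Bax, Bak1 and Bad), and without CreER knockout 1 or 2 it was 1. In progenitors 0 of 10 were called (0.299% of all genes), 0 at an unadjusted p under 0.05, and 0 by DESeq2 and limma-voom. Larger changes with Mx1Cre than with CreER in LSK cells, such as Bak1 at 0.53 against 0.14, are thus not shown to differ (interaction 0.39 ± 0.14, edgeR adjusted p = 0.112).

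**Figure D4:**
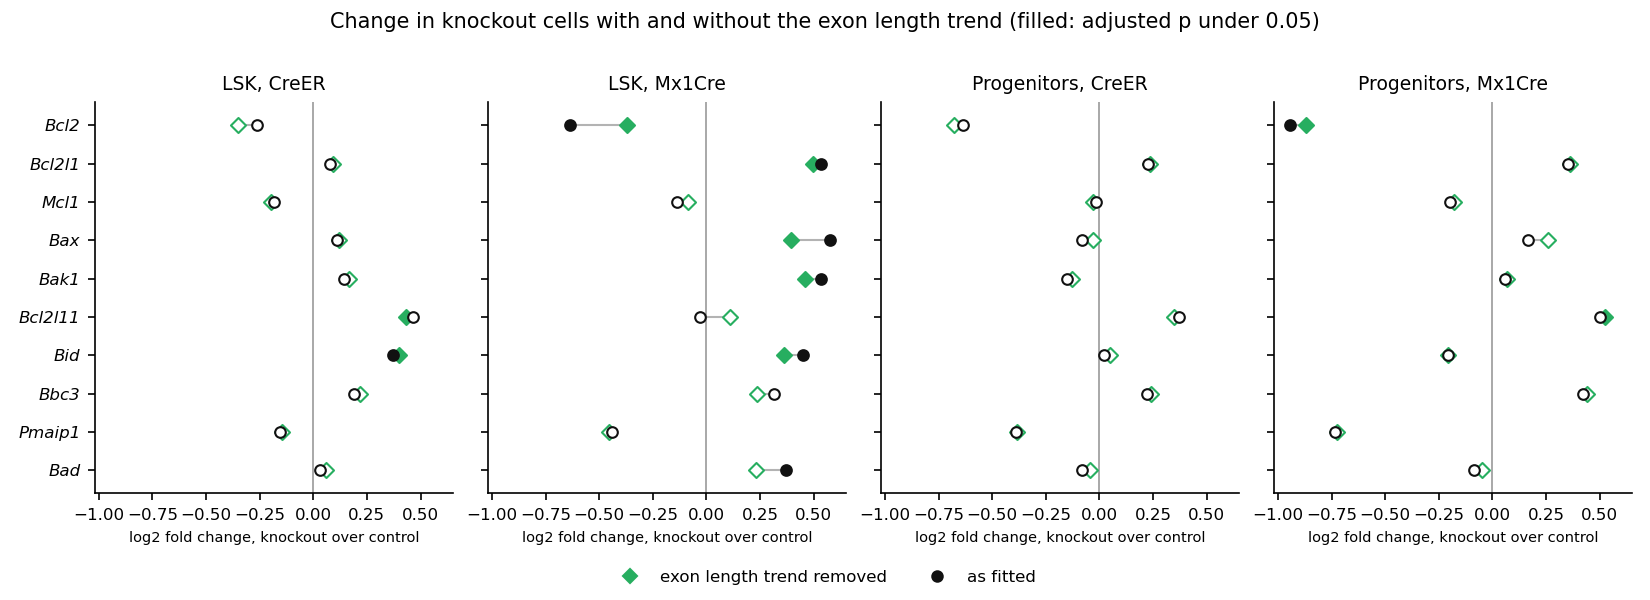
Log2 fold change of each gene, knockout over control (x axis), as fitted (circles) and with each library's trend on exon length removed (diamonds), in the 4 pairs of groups. In LSK Mx1Cre cells Bcl2 is at -0.64 as fitted and -0.37 with the trend removed, and Bad loses its filled mark (adjusted p under 0.05), while Bcl2l11 gains one in LSK CreER cells and in progenitor Mx1Cre cells.

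The knockout effect itself was then set between the populations, LSK minus progenitor. It differed for Bid, by 0.50 ± 0.11 (log2, SE; edgeR, Benjamini-Hochberg adjusted p = 0.0127), and for Bak1, by 0.37 ± 0.10 (adjusted p = 0.0447), both more positive in LSK cells. These are 2 of 10 genes, beside 2.52% of 14459 genes tested. Bid was called without each single library, with adjusted p values of up to 0.0298, and with the mouse as a block (0.00207), but not without LSK CreER knockouts 2 and 3 together (0.46, adjusted p = 0.0541). Bak1 lost its call without any 1 of 21 of the 32 libraries (adjusted p up to 0.0962). It kept it without LSK CreER control 3, LSK CreER knockouts 1 or 3, LSK Mx1Cre knockout 2, progenitor CreER controls 1 or 2, progenitor Mx1Cre controls 1 or 3, progenitor CreER knockouts 3 or 4 or progenitor Mx1Cre knockout 3. The Bak1 call was also lost without both LSK CreER knockouts 2 and 3 (0.35, adjusted p = 0.0923). With the mouse as a block Bak1 had an adjusted p of 0.0148. For Bid and Bak1 this block took the mouse labels of LSK CreER knockouts 2 and 3 as given. Sex-linked transcripts of these libraries went against their sex labels, so their pairing is uncertain. For the other 8 genes no difference was called. The interval was, for example, -0.10 to 0.68 for Bax and -0.57 to 0.11 for Bcl2l11.

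Markers of other cells moved with the knockouts. In LSK knockouts over both Cre lines 6 of 9 LSK markers fell and 4 of 6 mature neutrophil markers rose. Beside these, 14.3% of all genes tested were called lower and 13.5% higher. In progenitors 7.79% of all genes tested were called either way. A count of 1 gene in a list is thus not read as a result about those cells. LSK markers summed to 1174 to 1845 CPM in CreER knockouts and 1563 to 1769 in controls, and to 929 to 1279 CPM in Mx1Cre knockouts and 1290.0 to 1581 in controls. Neutrophil markers summed to 129.5 to 1162 CPM in CreER knockouts and 96.4 to 173 in controls, and to 937 to 2319 CPM in Mx1Cre knockouts and 390.5 to 2268 in controls. In progenitors 1 of 9 LSK markers fell and 0 of 6 neutrophil markers were called, though the neutrophil sums were 501 to 2691 CPM in CreER knockouts and 284 to 662 in controls, and 2719 to 25138 CPM in Mx1Cre knockouts and 1168 to 14439 in controls. Of the B cell markers 1, Cd79b, fell in each population. B cell markers summed to 9.56 to 12.8 CPM in progenitor CreER knockouts and 15.3 to 27.2 in controls, and to 7.37 to 12.7 CPM in Mx1Cre knockouts and 28.4 to 46.8 in controls. Most of that was Cd79b, whereas Pax5 stayed under 1 CPM in all progenitor libraries and Ms4a1 was at 0 in progenitor Mx1Cre controls. Of 9 committed myeloid markers Prtn3, Ms4a3 and Cebpe rose and Gata1 and Klf1 fell in LSK knockouts, and Elane and Csf1r fell in knockout progenitors. These markers summed to 6646 to 14939.9 CPM in LSK CreER knockouts and 4968 to 11168 in controls, and to 19438 to 26672 CPM in LSK Mx1Cre knockouts and 17046 to 21249 in controls. In progenitors they summed to 9684 to 21749 CPM in CreER knockouts and 13903 to 25652 in controls, and to 24660.0 to 28245 CPM in Mx1Cre knockouts and 34961 to 38054 in controls, without overlap. Monocyte and macrophage markers had 1 of 6 higher in LSK knockouts (Adgre1) and 2 of 4 tested lower in progenitors (Ly6c2 and Ccr2). Their sums were 719 to 1194 CPM in progenitor Mx1Cre knockouts and 1572 to 2526 in controls, without overlap, and 295 to 637 CPM in progenitor CreER knockouts and 456 to 1021 in controls. In LSK cells they were 253 to 656 CPM in CreER knockouts and 202 to 530.2 in controls, and 608 to 844 CPM in Mx1Cre knockouts and 702 to 948 in controls. Of 5 T and NK cell markers tested in LSK cells 1, Lck, fell over both Cre lines. Their sums were higher in Mx1Cre knockouts, at 208 to 319 CPM against 181 to 205 in controls without overlap. With CreER the sums were 114 to 155 CPM in knockouts against 141 to 174 in controls. Gene by gene with Mx1Cre, Nkg7 was called higher (log2 0.60, edgeR adjusted p = 0.00454) and Lck lower (-0.89, adjusted p = 0.00539). Cd3d, Cd3g and Klrd1 were not called. Late erythroid markers had Hba-a1 higher and Epor lower in LSK knockouts and Alas2 higher in progenitors, and of endothelial and stromal markers Kdr fell in LSK knockouts. The part of these cells in the changes of the BCL2 family was not tested.

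Control libraries alone show how the genes differed between the populations. The same mice gave both populations, and the main fit held no mouse term. Its SE and p thus treat paired libraries as separate, and a mouse block was run as an alternative. LSK controls had more Bcl2 than progenitor controls, by 0.98 ± 0.14 (log2, SE; edgeR, Benjamini-Hochberg adjusted p = 3.24e-06), and more Bcl2l1, by 0.40 ± 0.09 (adjusted p = 0.000951). They had less Bid (-0.43 ± 0.08, adjusted p = 0.000102), Bak1 (-0.35 ± 0.07, adjusted p = 0.000473) and Bax (-0.41 ± 0.14, adjusted p = 0.0197). Bax lost its call without progenitor Mx1Cre control 1, where the difference was -0.24 (adjusted p = 0.0789). So 5 of 10 genes were called, beside 34.6% of genes tested. Mcl1 differed by 0.02 (95% interval -0.15 to 0.18). These comparisons share their control libraries with those of the knockouts, so no pattern across them is drawn.

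Between Cre lines, LSK controls differed in 5 of 10 genes, beside 21.7% of genes tested. Mx1Cre controls had less Bcl2l1 than CreER controls (-0.76 ± 0.12, log2, SE; edgeR, Benjamini-Hochberg adjusted p = 0.000225), less Bbc3 (-0.80 ± 0.21, adjusted p = 0.0101) and less Bax (-0.42 ± 0.13, adjusted p = 0.0326). They had more Bcl2l11 (0.60 ± 0.14, adjusted p = 0.00626) and more Bid (0.47 ± 0.10, adjusted p = 0.00247). The Bax call was lost without CreER controls 2 or 3 or Mx1Cre controls 2 or 4, each left out alone, with adjusted p values of up to 0.11, and the difference was -0.30 without CreER control 3. In CPM, Bbc3 averaged 12.2 ± 2.74 in LSK Mx1Cre controls and 21.6 ± 5.14 in LSK CreER controls (SD, n = 4 each).

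Progenitor controls differed in 3 of 10 genes, beside 25.3%. Bbc3 was lower with Mx1Cre (-1.18 ± 0.22, log2, SE; edgeR, Benjamini-Hochberg adjusted p = 0.00152), at 8.51 ± 2.12 CPM against 19.4 ± 2.71 CPM with CreER (SD, n = 4 each), and its libraries did not overlap. Bid was higher (0.70 ± 0.13, adjusted p = 0.00147), at 157 ± 11.8 CPM with Mx1Cre and 96.9 ± 13.1 CPM with CreER, and Bad was higher (0.52 ± 0.16, adjusted p = 0.0284). The Bad call was lost without CreER controls 1, 2 or 4 or Mx1Cre controls 1 or 4, each left out alone (adjusted p up to 0.0844). With the length trend removed 5 genes were called, Bcl2l11 (0.49, adjusted p = 0.00541) and Bax (-0.56, adjusted p = 0.000704) being added. Bcl2 did not pass in either population, with a log2 difference of 0.01 (95% interval -0.27 to 0.29) in LSK controls and 0.05 (interval -0.43 to 0.53) in progenitor controls.

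**Figure D5:**
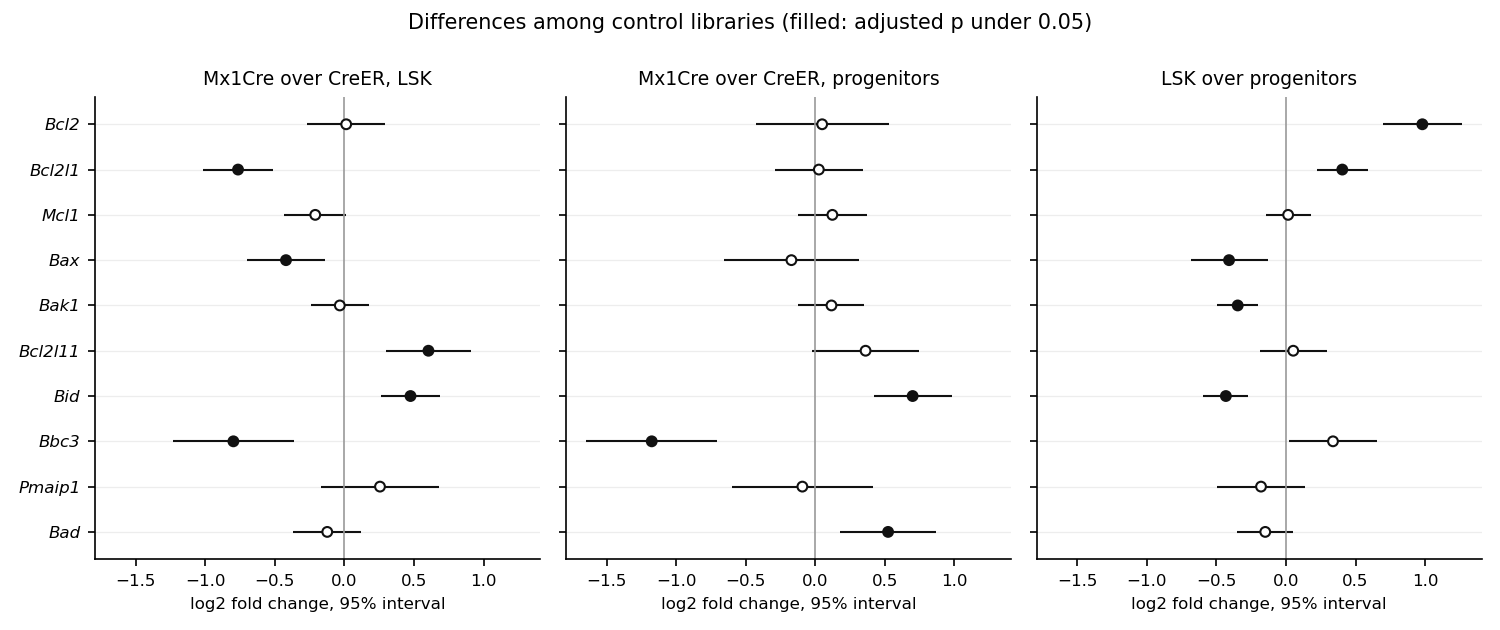
Log2 fold change of each gene among control libraries (x axis) with 95% intervals derived from the edgeR test. Panels show Mx1Cre over CreER in LSK cells (left) and progenitors (middle), and LSK cells over progenitors (right). Filled points have an adjusted p under 0.05, with Bbc3 at -0.80 and -1.18 between Cre lines and Bcl2 at 0.98 between populations.

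Other genes of the death pathway were grouped in lists. Among 15 other BCL2-like genes, which include near-identical Bcl2a1 copies whose reads may be split, 8 were tested in LSK cells, where 2 rose and 1 fell over both Cre lines, with a list median of 0.09 against 0.01 over all genes tested, of which 27.8% were called. Bmf, a BH3-only gene whose protein is released from the cell skeleton on stress, had 2.12, 3.17, 3.33 and 3.65 CPM in LSK CreER knockouts, against 2.58, 1.53, 0.477 and 0.611 CPM in controls. In LSK Mx1Cre cells it had 10.4, 8.48, 7.75 and 6.89 CPM in knockouts, against 2.26, 3.22, 2.44 and 3.96 CPM in controls, with no overlap, whereas with CreER knockout 1 lay below control 1. Bmf rose by 1.39 ± 0.25 over both Cre lines (log2, SE; edgeR, Benjamini-Hochberg adjusted p = 0.000674) and was called under all 25 alternatives run. Bcl2l14 rose by 0.56 ± 0.20 (adjusted p = 0.047), and lost its call under 17 of 25 alternatives, among them leaving out CreER controls 1, 3 or 4, Mx1Cre controls 1 or 3, CreER knockouts 1, 2 or 3 or Mx1Cre knockouts 1, 3 or 4 alone (adjusted p up to 0.103). Bcl2l2, which encodes the survival protein BCL-W, fell by 0.30 ± 0.09 (adjusted p = 0.0201, and 0.0505 without CreER control 2).

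Genes of the mitochondrial channel and of released factors had 4 of 5 higher in LSK knockouts, beside 13.5% of all genes tested, and a list median of 0.31. The channel genes Vdac2 and Vdac3 rose by 0.39 ± 0.07 and 0.31 ± 0.10 (log2, SE), Endog, a nuclease freed from mitochondria, by 0.39 ± 0.10, and Aifm1, a flavoprotein of the intermembrane space, by 0.29 ± 0.08 (with edgeR, each adjusted p was 0.0252 or lower). Vdac3 lost its call without CreER controls 2 or 4, Mx1Cre controls 1 or 2, CreER knockout 1 or Mx1Cre knockout 3, each left out alone (adjusted p up to 0.0618). Of 5 IAP genes and antagonists 1 fell, near the 14.3% of all genes called lower. It was Birc2, which encodes a ubiquitin ligase of TNF receptor signalling, at 0.24 ± 0.08 lower (edgeR adjusted p = 0.0274). Birc2 had an adjusted p of 0.0529 without Mx1Cre knockout 1 at the highest and also lost its call without Mx1Cre control 2.

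Of 9 death receptor genes 2 rose and 1 fell in LSK knockouts, a share near the 27.8% of all genes called there, and the list median was 0.04. The adaptor Fadd rose by 0.30 ± 0.10 and the TNF receptor gene Tnfrsf1a by 0.17 ± 0.06, and the death receptor gene Fas fell by 1.10 ± 0.38 (log2, SE; edgeR, Benjamini-Hochberg adjusted p of 0.0271, 0.0298 and 0.0401). Fadd lost its call without CreER control 1, Mx1Cre controls 2, 3 or 4, CreER knockouts 2 or 4 or Mx1Cre knockout 4, each left out alone (adjusted p up to 0.0747). Tnfrsf1a lost it without CreER controls 2 or 4, Mx1Cre controls 1, 3 or 4, CreER knockouts 2 or 4 or Mx1Cre knockouts 1 or 3 (up to 0.083), and Fas without CreER controls 1 or 3, Mx1Cre controls 1, 3 or 4, CreER knockouts 1, 2 or 4 or Mx1Cre knockout 4 (up to 0.0777). Fas averaged 0.667 to 2.17 CPM in the 4 LSK groups. Among 14 upstream regulators 3 fell and 1 rose, again near the 27.8% of all genes (13.5% higher and 14.3% lower), with a list median of -0.14. Stat5a and Stat5b, cytokine signal transducers whose targets include Bcl2l1, fell by 0.53 ± 0.06 and 0.29 ± 0.06, and the survival kinase gene Pim1 by 0.36 ± 0.11, while Akt1 rose by 0.19 ± 0.05 (adjusted p of at most 0.0183). These 4 genes kept their calls under all 25 alternatives run.

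In knockout progenitors 1 of these pathway genes was called over both Cre lines, beside 7.79% of the 13692 genes tested. Bnip3l, which encodes a mitochondrial receptor for mitophagy, rose by 0.37 ± 0.09 (log2, SE; edgeR, Benjamini-Hochberg adjusted p = 0.0175). It had 141, 127, 119 and 119.6 CPM in CreER knockouts, against 96.2, 97.1, 84.0 and 83.6 CPM in controls, without overlap, and 125, 97.4, 119.9 and 112 CPM in Mx1Cre knockouts, against 112, 101, 71.7 and 91.9 CPM in controls, which overlapped. Bmf differed by 0.67 in progenitors (95% interval 0.03 to 1.304, adjusted p = 0.223). List medians lay between -0.21 for death receptor genes and 0.15 for other BCL2-like genes, beside -0.01 over all genes tested.

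The family did not move as one across the 32 libraries. The gene closest in pattern to Bcl2 among 14458 tested was Fbxo21, with a Pearson correlation of log2 CPM of 0.97, followed by Arhgap32 at 0.95. For Bid these were Tfec (0.95) and Adssl1 (0.95), and for Bak1 the glycolytic gene Aldoa (0.85) and Tuba4a (0.85). Bcl2l1 was closest to Dusp4 (0.84), Bcl2l11 to Lats2 (0.81), Mcl1 to Samhd1 (0.82), Bbc3 to Ttc4 (0.88), Bad to Reep5 (0.91) and Pmaip1 to Eml5 (0.68). The genes closest to Bax carried no symbol. Libraries share population, Cre line, genotype and mouse, so these correlations describe the data and carry no p.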

How the data were processed

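RNA of sorted LSK and progenitor cells from 16 mice was measured in 32 libraries. The authors deposited raw counts, whole numbers for each gene, beside its exon length. The submitters' processing notes name featureCounts and mm10. Aligner, annotation and strand setting: not given in the sources used here, so reads of overlapping genes may be shared. Gene symbols were matched through RefSeq on this build for 25275 of 27179 genes. Counts of the family ran from 43 to 4791 in a library, and since molecules carry no identifiers, their precision covers counting error only.

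Tests used edgeR 4.0.16 in R 4.3.3 with TMM scaling, its low-count filter (10 counts in enough libraries and 15 overall), quasi-likelihood and Benjamini-Hochberg adjustment over all genes tested, at a threshold of 0.05. Fits held the 16 libraries of a population, or all 32 across populations, and gave 12 comparisons with SE and 95% intervals. The SE is not an edgeR output. It was taken as the absolute log2 change divided by the square root of the test's F statistic, and is approximate. Intervals used this SE and the t distribution. The pipeline was tested on simulated data. Alternatives were DESeq2 1.42.0 (size factors, and Wald test), limma-voom 3.58.1, no filter or 1 CPM in 4 libraries, sex, a replicate or mouse block, the compared libraries alone, removal of each library's trend on exon length, and libraries left out. After seeing the data, 2 were added: progenitor Mx1Cre control 1 left out with knockout 4, and a mouse block with the mice of LSK CreER knockouts 2 and 3 exchanged.

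The members and the pathway and marker lists were chosen with earlier results of these data known. All members are named, and of each pathway list up to 4 genes called in the mean of both Cre lines. The result of 1 pathway list is not reported here. Replicate numbers come from the titles. Same-numbered knockout and control libraries came from different mice, so the numbers are not taken to pair them. In the Mx1Cre groups such libraries also share their sex label. Their deviations correlated at 0.130 to 0.244 in LSK Mx1Cre cells and at -0.279 to 0.434 in the other group pairs. LSK and progenitor libraries of 1 mouse are paired by the mouse label, with correlations of -0.094 to 0.427.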

Additional observations from a re-analysis of the deposited data

Results flagged for a closer look

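In 8 of 80 groups of 4 libraries, 1 library stood far from the other libraries of its group by Dixon's criterion at the 95% level. Chance flags about 1 in 20 groups. For Bcl2 these were progenitor CreER knockout 1 at 61.6 CPM (45.7 to 47.0 CPM in the other knockouts) and progenitor Mx1Cre knockout 2 at 59.4 CPM (33.1 to 37.3 CPM in the other knockouts). Both stood on the side of the controls.

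Bbc3 had 3 such libraries: progenitor Mx1Cre knockout 2 at 7.97 CPM, LSK CreER control 1 at 29.2 CPM and LSK Mx1Cre control 4 at 16.3 CPM. The others were Bcl2l1 in LSK Mx1Cre control 2 at 19.2 CPM, Mcl1 in progenitor Mx1Cre control 4 at 384 CPM and Bad in progenitor CreER control 3 at 33.8 CPM.

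The knockout effect differed between LSK cells and progenitors for Bid, by 0.50 on the log2 scale (edgeR, Benjamini-Hochberg adjusted p = 0.0127), and for Bak1, by 0.37 (adjusted p = 0.0447). Without LSK CreER knockouts 2 and 3, which went against their sex labels, that group held fewer libraries. The differences between populations were then 0.46 (edgeR adjusted p = 0.0541) and 0.35 (adjusted p = 0.0923). The causes of these differences were not tested.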

How the results depend on the processing

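Of 2750 values of single genes recomputed under an alternative, 2555 kept their direction and side of the threshold, 77 lost a call, 35 gained one and 83 that were not called changed sign; 0 called values changed sign. Genes called stayed within 1.5 times of 5 in LSK knockouts over both Cre lines, 6 with Mx1Cre, 5 between LSK controls and 5 between LSK and progenitor controls. In LSK CreER knockouts the count of 1 became 0 with limma-voom, without a filter, with the replicate block and with the compared libraries alone. The count was also 0 without knockouts 2 and 3, and with sex as labelled. Sex-linked transcripts of knockouts 2 and 3 went against those labels. With the length trend removed the count was 2, and with single libraries left out 0 to 1. In progenitors over both Cre lines the count of 2 became 1 without a filter and 1 with the replicate block, and 1 to 3 with single libraries left out. In progenitor CreER knockouts the count of 0 became 1 with the compared libraries alone. In progenitor Mx1Cre knockouts the count of 1 became 2 with DESeq2, limma-voom, the length trend removed or control 1 and knockout 4 left out, 0 with the compared libraries alone, and 0 to 2 with single libraries left out. Between progenitor controls the count of 3 became 5 with the length trend removed. The Cre line difference in LSK cells gave 0 to 5 with single libraries left out. The difference of the knockout effect between populations, 2 genes, became 1 with limma-voom, 1 without a filter, 0 without LSK CreER knockouts 2 and 3, and 1 to 2 with single libraries left out. In LSK Mx1Cre cells the replicate block changed no member's call. Apart from calls lost where fewer libraries were fitted, the cause was not tested.

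Over all genes, LSK CreER gave 445 calls, with 889 by DESeq2, 231 with the compared libraries alone and 33 without knockouts 2 and 3. Progenitors over both Cre lines gave 1067, and 2013 without Mx1Cre control 1 and knockout 4. Progenitor CreER gave 23, with 183 by DESeq2, 36 by limma-voom, 73 with the length trend removed and 158 with the compared libraries alone. Progenitor Mx1Cre gave 833, with 1264 by DESeq2, 344 with the compared libraries alone and 1384 without control 1 and knockout 4. The Cre line difference gave 616 in LSK cells, with 1229 by DESeq2 and 310.0 without knockouts 2 and 3, and 41 in progenitors, with 120.0 by DESeq2 and 19 by limma-voom. Progenitor controls gave 3458, and 2297 with the compared libraries alone. The knockout effect difference gave 364, with 611 by DESeq2, 769 with the mouse block, 877 with the exchanged mice, 148 without LSK CreER knockouts 2 and 3 and 768 without progenitor Mx1Cre control 1 and knockout 4.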
